A study of Mus musculus with 12 samples.

Results

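The genes described here are 10 members of the metalloproteinase system: the membrane-anchored sheddases *Adam8*, *Adam9*, *Adam15* and *Adam19*, the matrix metalloproteinases *Mmp2*, *Mmp9*, *Mmp12*, *Mmp13* and *Mmp14*, and the inhibitor *Timp2*. They were taken by symbol from an expression table of 48623 genes, of which 48350 could be named from the annotation, and each of the 10 symbols had 1 identifier. *Adam8* had been singled out by the study as a hub of a co-expression network built on these same libraries, so its relation to genotype here is not independent evidence. The libraries came from primary microglia, the macrophages of the brain, cultured from C57BL/6J-background mice that were either wild type (WT) or homozygous for the R47H knock-in allele of *Trem2* (KI). From each of 3 WT cultures (T13, T33 and T43) and 3 KI cultures (T15, T22 and T32) a library was made without treatment and another after interleukin-4 (IL-4), a cytokine that drives an anti-inflammatory state, at 20 ng/ml for 48 h, so that 12 libraries fall into 4 groups of 3. All cells were prepared from the cortices and hippocampi of newborn pups, grown as mixed glia and freed of the astrocyte layer with mild trypsin, which can leave some astrocytes behind. In this KI line the allele lowers *Trem2* expression through altered splicing, so the KI group carries a reduced amount of the receptor as well as the amino acid change. In the methods, KI-line pups were cultured separately and genotyped afterwards whereas cultures of the WT strain pooled the pups of a litter, and for the libraries used here the study describes the WT mice as littermates of the KI mice.

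ADAM proteins are transmembrane enzymes that cut other membrane proteins close to the cell surface and so release soluble receptors, cytokines and adhesion molecules. Matrix metalloproteinases are mostly secreted as inactive precursors and cleave elastin, collagens, gelatin and other matrix proteins once activated, while the tissue inhibitors of metalloproteinases (TIMPs) bind the active site and, in the case of TIMP-2, also help the membrane enzyme MMP-14 to activate pro-MMP-2. In microglia these enzymes are known for shedding of surface receptors, for movement through tissue and for remodelling of the matrix around neurons, and RNA levels do not report whether an enzyme is active.

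The start-site sequences of *Mmp13*, *Mmp12* and *Timp2*, members whose RNA is described below as higher with IL-4, are shown because *Mmp13* and *Mmp12* are neighbours on chromosome 9 while *Timp2* has a start of another type. They were read from the RefSeq promoter windows of GRCm38.p6, which reach from 250 bases before to 50 bases after an annotated start and cover 7 of the 10 genes. *Adam9*, *Mmp2* and *Mmp9* had no window. Capitals mark motifs that were searched on both strands, and each sequence is written in the direction of transcription. For AP-1, the Fos and Jun factor of many metalloproteinase promoters, the motif was TGANTCA. The TATA box, which positions the transcription machinery, was searched as TATAAA. For the GC box, bound by Sp1, a factor of promoters without a TATA box, the letters were GGGCGG.
*Mmp13*, chr9:7272454-7272513, plus strand, the 60 bases before the start: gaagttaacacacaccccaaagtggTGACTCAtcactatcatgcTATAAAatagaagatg
*Mmp12*, chr9:7347314-7347393, plus strand, the 60 bases before and 20 bases after the start: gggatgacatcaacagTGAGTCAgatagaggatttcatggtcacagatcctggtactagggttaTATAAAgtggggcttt
*Timp2*, chr11:118355412-118355471, minus strand, the 60 bases before the start: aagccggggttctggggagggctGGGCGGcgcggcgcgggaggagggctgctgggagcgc
The AP-1 motif began 35 bases before the start of *Mmp13* and 44 bases before that of *Mmp12*. The TATAAA letters began 16 bases before the start of *Mmp13*. In *Mmp12* they began at base 5 of the annotated transcript and so lie after the start shown. Whether either match positions the transcription machinery was not tested. *Mmp12* has another RefSeq window, further upstream at the 5′ end of the gene, which held none of the motifs searched, and the start shown here lies inside the annotated gene. Of all 32851 windows, 7.81% held the AP-1 motif, 13.6% the TATA box, 1.54% both of these and 35.7% the GC box. The *Timp2*, *Adam8*, *Adam15* and *Mmp14* windows held a GC box and none of these 4 held the AP-1 or TATA letters. The motif of STAT6, the factor downstream of the IL-4 receptor, occurred in 6.95% of all windows and was found among the members only in a window of *Adam19*. Another *Adam19* window held the AP-1 letters 131 bases before its start and a GC box. The RNA of *Adam19* was too low for the main test, as described below. Whether any motif goes with the IL-4 steps was not tested. These matches describe letters in a short window and do not show binding.

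The 10 genes covered a wide range of expression in TPM, a transcript abundance corrected for transcript length and scaled to the same total in every library. By mean TPM over the 12 libraries the order was *Mmp12* (883), *Adam8* (730), *Timp2* (436), *Adam15* (144), *Adam9* (85.8), *Mmp14* (50.1), *Mmp13* (22.2), *Mmp2* (7.32), *Adam19* (1.01) and *Mmp9* (0.716). Ranges of neighbours in this order overlapped except between *Timp2* and *Adam15* and between *Mmp2* and *Adam19*, and *Mmp12* exceeded *Adam8* in 4 of 12 libraries only. *Mmp12*, macrophage elastase, was also the most variable in absolute terms, from 57.2 to 2501 TPM. *Mmp9*, gelatinase B, was listed at 0 in 6 libraries and never rose above 2.65 TPM, while *Adam19* stayed between 0.0612 and 1.97 TPM. These last 2 genes fell below the expression limit for testing, a mean of 1.5 on the log2(TPM + 1) scale, so 8 of the 10 were tested.

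**Figure D1:**
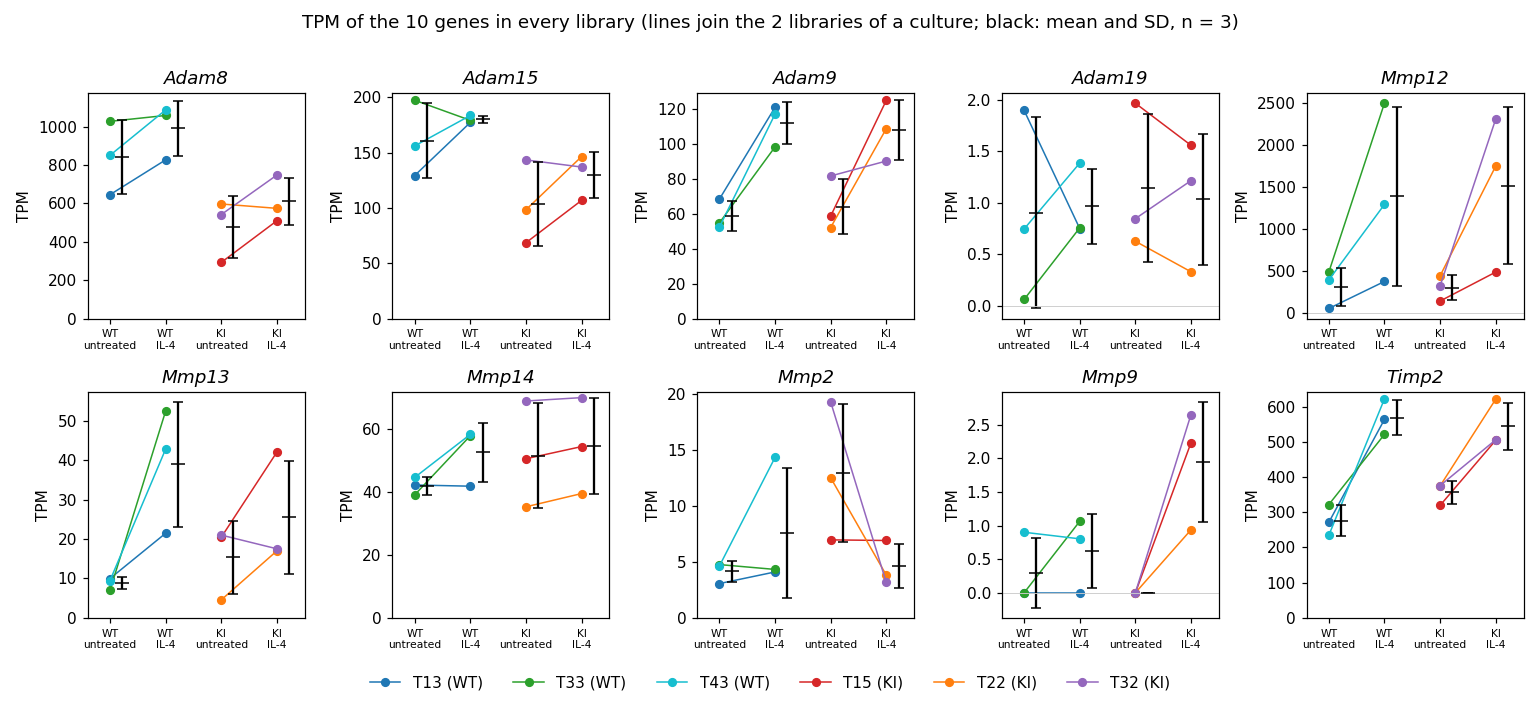
TPM of the 10 genes in each of the 12 libraries, 1 panel per gene, with WT and KI libraries on the horizontal axis split by treatment. Coloured lines join the untreated and the IL-4 library of a culture, and black marks give the mean and SD of 3 libraries. *Adam8* lies lower in KI than in WT under both treatments, *Timp2* and *Adam9* lie higher with IL-4, and *Mmp12* rises along every line from very different starting levels.

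The labels could be checked against the edited gene. *Trem2* measured 1584 ± 282 TPM in WT against 566 ± 225 TPM in KI libraries without treatment, and with IL-4 1351 ± 183 against 553 ± 110 TPM (SD over 3 libraries in each case), a log2 difference of -1.43 (SE 0.19, adjusted p = 0.00238, limma). All 18 microglial markers passed the expression limit. Their summed level was 32778 to 34016 TPM in untreated WT, 37434 to 46765 in IL-4-treated WT, 14509 to 28513 in untreated KI and 24556 to 32900 in IL-4-treated KI libraries, and 7 of the 18 passed the threshold as lower in KI. The summed level of 10 astrocyte markers was 4788 and 3656 TPM in the untreated and IL-4 libraries of KI culture T15 and between 167 and 691 TPM in the other 10 libraries. In bulk RNA, fewer cells of a type and less RNA per cell cannot be told apart. The depth of the libraries cannot be recovered from TPM, so the SDs given are the spread between libraries of a group.

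Among the sheddases, *Adam8* was lower in KI microglia, and it was the member of the 8 tested that passed the genotype threshold. It encodes ADAM8, a leukocyte sheddase that activates itself and cuts surface receptors and adhesion molecules. Without treatment the WT cultures T13, T33 and T43 had 645, 1027 and 850 TPM, while the KI cultures T15, T22 and T32 had 293, 597 and 542 TPM. After IL-4 it was at 827, 1058 and 1086 TPM in WT and at 510, 574 and 748 TPM in KI cultures, in the same order. The KI libraries lay below the WT libraries without overlap within each treatment, as 1.23% of all genes tested did, although KI T32 with IL-4 exceeded untreated WT T13. The log2 difference, KI minus WT averaged over both treatments, was -0.78 (SE 0.18, adjusted p = 0.0275, limma), a fold of 0.582 with a 95% interval of 0.444 to 0.764. That fit counts the 2 libraries of a culture as independent. With culture as a random replicate block the SE was 0.19 and the adjusted p 0.0409 (limma), and the interval was 0.439 to 0.773. Over all 11204 genes tested, 5.13% passed this threshold, 3.95% as higher and 1.19% as lower in KI, and the members' count of 0 higher and 1 lower of 8 stands beside those shares. The split of all calls, 442 higher and 133 lower, was 329 and 181 with median-ratio scaling and 257 and 192 after quantile normalization. The median log2 difference of all genes was 0.13 with TPM, 0.02 with median-ratio scaling and -0.08 after quantile normalization.

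The call on *Adam8* was not firm. It was past the threshold in 7 of 18 alternative fits, all of which kept its direction. Leaving out KI culture T15 gave -0.56 (adjusted p = 0.0691), leaving out WT culture T33 gave -0.68 (adjusted p = 0.154) and leaving out WT culture T43 gave -0.73 (adjusted p = 0.170). With the astrocyte marker score as a covariate the difference was -0.37 (adjusted p = 0.156) and with the microglial marker score it was -0.78 (SE 0.34, adjusted p = 0.577, limma). Every KI library had a lower microglial marker score than every WT library, so that fit can hardly tell the score from genotype. Its p does not bear on whether *Adam8* differed. Adjusted p-values over the 18 alternatives ranged from 0.0226 to 0.577.

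*Adam8* was also set against the microglial markers directly. The mean log2 level of the 18 markers was 0.55 lower in KI than in WT libraries, from 9.10 in WT to 8.55 in KI. Relative to it, *Adam8* stood at 0.71 ± 0.52 in WT and 0.48 ± 0.29 in KI cultures (log2 units, SD, n = 3), with ranges of 0.14 to 1.13 and 0.20 to 0.78 that overlapped. The difference of -0.23 gave p = 0.5 in the 2-sided exact permutation test over cultures, in which 3 against 3 cannot go below 0.1, so that no outcome could have passed and the p does not bear on whether *Adam8* differed. The reference is itself not neutral, as 7 of its 18 markers were called lower in KI. The difference was -0.52 without WT culture T13, -0.38 without KI T32, -0.15 without WT T43, -0.09 without KI T15 and -0.02 without WT T33, and -0.07 against the median of the markers, with exact permutation p-values from 0.2 to 0.9.

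**Figure D2:**
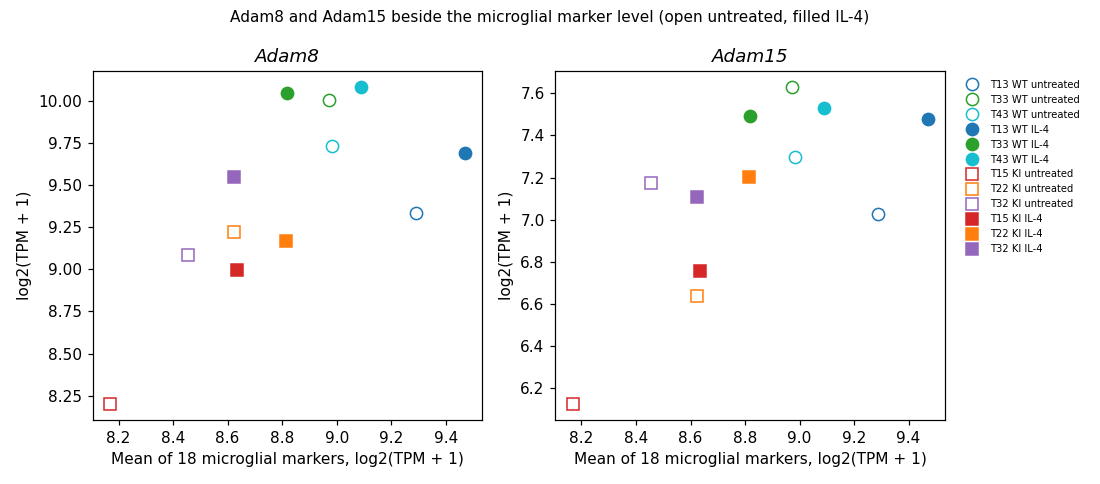
Log2(TPM + 1) of *Adam8* (left) and *Adam15* (right) on the vertical axis against the mean log2(TPM + 1) of 18 microglial markers on the horizontal axis, 1 symbol per library. Circles are WT, squares KI, open symbols untreated and filled symbols IL-4-treated. The untreated library of KI culture T15 is lowest on both axes in both panels, and every KI library lies to the left of every WT library, with 8.81 and 8.82 as the closest marker levels.

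*Adam15*, which encodes a widely expressed ADAM with an integrin-binding disintegrin domain, followed the pattern of *Adam8* less far. Without treatment WT cultures T13, T33 and T43 had 129, 197 and 156 TPM, and KI cultures T15, T22 and T32 had 68.7, 98.5 and 144 TPM. After IL-4 the WT cultures had 177, 179 and 184 TPM and the KI cultures 107, 147 and 137 TPM. The groups overlapped without treatment through KI T32 and were apart after IL-4, as 5.79% of all genes were. The log2 difference was -0.58 (SE 0.17, adjusted p = 0.0681, limma), with a 95% interval of the fold from 0.520 to 0.865, and it did not pass the threshold. With the replicate block the adjusted p was 0.107 (limma), with an interval of 0.511 to 0.880. The difference passed with median-ratio scaling (adjusted p = 0.0428), after quantile normalization (adjusted p = 0.0495) and without KI culture T32 (-0.73, adjusted p = 0.0330), which are 3 of 18 alternatives. The difference was smaller without KI culture T15 (-0.38, adjusted p = 0.229), with the astrocyte marker score (-0.31, adjusted p = 0.487) and with the microglial marker score as a covariate (-0.47, adjusted p = 0.764), and it kept its direction in all 18. Across the 12 libraries log2 levels of *Adam8* and *Adam15* had a Pearson r of 0.91, a description over libraries that share cultures and cell makeup.

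None of the other 6 tested members passed the genotype threshold. For *Adam9*, a sheddase of growth factor precursors, the log2 difference was 0.03 (95% interval -0.29 to 0.34), and it was negative with both other scalings (-0.09 and -0.11). *Timp2* differed by 0.15 (-0.08 to 0.39) and *Mmp14*, the membrane-anchored collagenase that activates pro-MMP-2, by 0.14 (-0.27 to 0.55), the latter turning to -0.01 after quantile normalization. Intervals of the metalloproteinases with few transcripts or uneven cultures were wide, from -0.87 to 0.74 around -0.06 for *Mmp13* (collagenase 3), from -0.36 to 1.25 around 0.44 for *Mmp2* (gelatinase A) and from -0.99 to 1.52 around 0.27 for *Mmp12*. For *Mmp12* the interval covers folds from 0.504 to 2.87, and its value turned on the covariate: it was 1.59 (SE 0.39, unadjusted p = 0.00101, adjusted p = 0.0675, limma) with the astrocyte marker score and -1.15 (SE 0.98, adjusted p = 0.839, limma) with the microglial marker score, neither past the threshold.

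IL-4 raised the inhibitor *Timp2* and the sheddase *Adam9*, the 2 of 8 tested members past the IL-4 threshold, and both were higher with IL-4 in every culture. Over all genes 1.35% passed it, 1.14% as higher and 0.205% as lower. The median log2 difference of the 8 members was 0.58 for IL-4 and 0.08 for genotype, against 0.04 and 0.13 over all genes. For genotype the members' median was -0.04 with median-ratio scaling and -0.06 after quantile normalization, against 0.02 and -0.08 over all genes. *Timp2* went from 271 to 564 TPM in WT T13, from 322 to 521 in T33 and from 234 to 622 in T43. In KI cultures it went from 319 to 504 TPM in T15, from 375 to 621 in T22 and from 376 to 506 in T32. All 6 treated libraries lay above all 6 untreated libraries, as 1.12% of all genes did. The log2 difference was 0.83 (SE 0.11, adjusted p = 0.000942, limma), a fold of 1.77 with a 95% interval of 1.503 to 2.09. This held in 17 of 18 alternatives, all fits without 1 culture included, and was not past the threshold in the KI cultures taken alone (0.60, adjusted p = 0.196).

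*Adam9* went from 68.5 to 121 TPM in WT T13, from 54.9 to 98.4 in T33 and from 52.5 to 117 in T43. In KI cultures it went from 58.8 to 125 TPM in T15, from 52.3 to 109 in T22 and from 81.8 to 90.4 in T32. The treated libraries again lay above the untreated ones without overlap, and KI T32 had the smallest step, a TPM ratio of 1.10 against 1.77 to 2.23 elsewhere. The log2 difference was 0.84 (SE 0.15, adjusted p = 0.00855, limma), a fold of 1.79 with a 95% interval of 1.44 to 2.23. It passed the threshold in 12 of 18 alternatives, with adjusted p-values from 0.00258 to 0.237. Without KI culture T22 (adjusted p = 0.0530), WT culture T33 (0.0523) or WT culture T43 (0.116) it did not. Log2 levels of *Adam9* and *Timp2* had an r of 0.87 over the 12 libraries, again a description.

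*Mmp12* had the widest log2 step of the 8 tested members with IL-4, and its cultures started from very different levels. In WT it went from 57.2 to 379 TPM in T13, from 491 to 2501 in T33 and from 397 to 1296 in T43. In KI it went from 146 to 491 TPM in T15, from 445 to 1752 in T22 and from 325 to 2312 in T32. It was higher with IL-4 in 6 of 6 cultures, as 5.73% of all genes were, by TPM ratios from 3.27 to 7.10. Since the treated library of T13 was below the untreated libraries of T33 and T43, the groups overlapped in WT, and they were apart in KI, as 5.47% of all genes were. The log2 difference was 2.22 (SE 0.58, adjusted p = 0.103, limma) and did not pass the threshold when the cultures were ignored. With culture as a replicate block, which compares the 2 libraries of each culture, the same difference had an SE of 0.15 and an adjusted p of 3.4e-06 (limma), a fold of 4.65 with a 95% interval of 3.73 to 5.80. In that blocked fit 2.35% of all genes were called higher and 0.571% lower. Without the block it was past the threshold when WT T13, the culture with the least *Mmp12*, was left out (2.10, adjusted p = 0.0433) and with the astrocyte score as a covariate (2.33, adjusted p = 0.000435).

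*Mmp13*, the neighbour of *Mmp12* on chromosome 9, moved less evenly. In WT it went from 9.98 to 21.5 TPM in T13, from 7.01 to 52.5 in T33 and from 9.48 to 42.8 in T43, without overlap, as in 10.8% of all genes in WT. In KI it went from 20.5 to 42.1 TPM in T15 and from 4.56 to 17.002 in T22, and from 21.0 to 17.5 in T32. It was thus higher in 5 of 6 cultures. The log2 difference was 1.38 (SE 0.37, adjusted p = 0.117, limma) without the block and past the threshold with it (adjusted p = 0.0271, fold 2.61, 95% interval 1.66 to 4.09). It was also past it with the microglial (adjusted p = 0.0366) or astrocyte (adjusted p = 0.0395) score as a covariate.

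**Figure D3:**
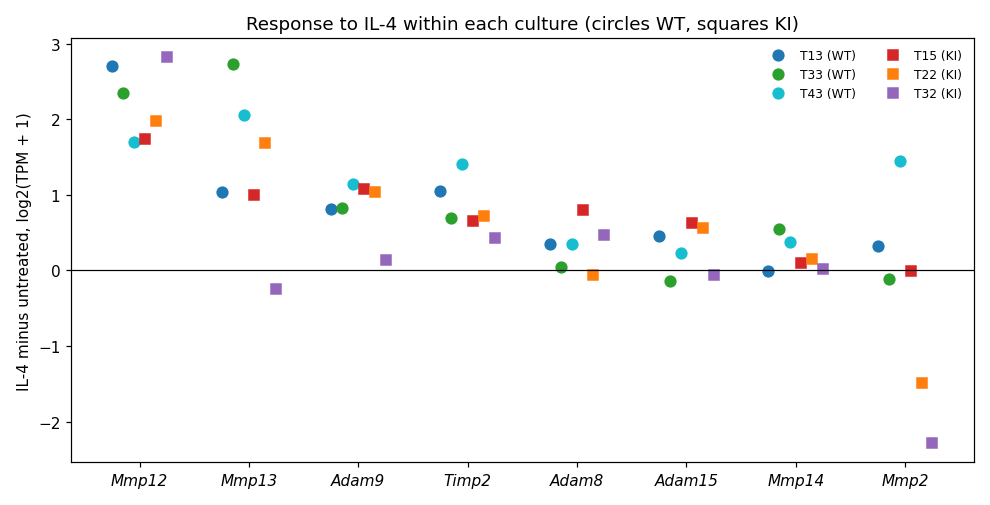
IL-4 minus untreated log2(TPM + 1) within each culture on the vertical axis, for the 8 tested genes on the horizontal axis. Circles are the 3 WT and squares the 3 KI cultures. All 6 points of *Mmp12*, *Adam9* and *Timp2* lie above 0, 5 of 6 do so for *Mmp13*, and the points of *Mmp2* spread from -2.29 to 1.45.

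The remaining members had small or unclear steps with IL-4. *Adam8* differed by 0.33 (95% interval -0.07 to 0.72, adjusted p = 0.667), *Adam15* by 0.28 (-0.09 to 0.65, adjusted p = 0.718) and *Mmp14* by 0.20 (-0.21 to 0.61, adjusted p = 0.867) in limma. With the replicate block the intervals were 0.10 to 0.55 for *Adam8* (adjusted p = 0.163, limma) and 0.008 to 0.55 for *Adam15* (adjusted p = 0.379). For *Mmp14* the blocked interval was -0.11 to 0.51 (adjusted p = 0.650, limma), and none of these genes passed. *Adam8* was higher in 5 of 6 cultures, with KI T22 the exception. *Mmp14* stayed between 35.2 and 69.9 TPM in every library. *Mmp9* was listed at 0 in every KI library without treatment and stood at 2.23, 0.938 and 2.65 TPM in the IL-4 libraries of T15, T22 and T32, while in WT it stood at 0.901 TPM in untreated T43 and at 1.06 and 0.803 TPM in the IL-4 libraries of T33 and T43 and was listed at 0 in the other 3. These levels are too low for a fold, and in the fit with no expression filter its IL-4 difference of 0.91 had an adjusted p of 0.424 (limma). For *Adam19*, a sheddase of neuregulins, the IL-4 difference in that fit was 0.03 (SE 0.32, adjusted p = 1).

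Markers of other cells were read beside the IL-4 steps. The mean log2 level of the microglial markers was 0.16 higher with IL-4, that of the 8 astrocyte markers past the expression limit 0.16, of 4 fibroblast markers 0.48, of 4 border macrophage markers 0.83 and of 2 endothelial markers 1.45, whereas that of 6 oligodendrocyte lineage markers differed by -0.21. The fibroblast and astrocyte values each leaned on a single culture. The 8 fibroblast markers summed to 8.71 TPM in untreated and 235 TPM in treated WT T43. Their sum rose less in T33 and T32 and fell in T13, T15 and T22. The astrocyte mean went from 3.73 to 5.34 in KI T22, rose less in T33 and fell in the other cultures. The 7 endothelial markers summed to 19.4 to 29.1 TPM in untreated and 61.3 to 142 TPM in treated libraries. Most of this was *Flt1*, which passed the IL-4 threshold (1.96, adjusted p = 0.000133, limma), while *Cldn5* and *Tek* were listed at 0 in all 12. The summed level of the 7 border macrophage markers was 596 to 1220 TPM in untreated and 1034 to 2124 TPM in treated libraries, made up mostly of *Ms4a7*, while *Lyve1* was listed at 0 in all 12. *Mrc1* in that list is itself an IL-4 target. Of 8 neutrophil markers, 5 were listed at 0 in every library, *S100a9*, *Ly6g* and *Elane* among them, and their sum never exceeded 14.9 TPM. The part of endothelial, border macrophage and fibroblast markers in the steps of *Timp2*, *Adam9*, *Mmp12* and *Mmp13* was not tested.

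Whether a member answered IL-4 differently in KI and WT was tested as an interaction. None of the 8 passed, and neither did any of the 11204 genes (0%), of which 357 had an unadjusted p under 0.05 in limma, while the fit with no expression filter called 4 genes, none of them a member. With culture as a replicate block, which compares the responses of whole cultures, no member passed either. The 95% interval around the response difference of -0.07 for *Mmp12* reached from -0.71 to 0.56 in that fit, and from -2.58 to 2.44 when the cultures were ignored. For *Timp2* the response difference was -0.45, from -0.87 to -0.016 with the block and from -0.92 to 0.03 without it, and the blocked value did not pass the threshold (unadjusted p = 0.0431, adjusted p = 0.969, limma). The blocked intervals were -0.81 to 0.46 for *Adam9* (-0.17) and -0.30 to 0.60 for *Adam8* (0.15).

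*Mmp2* had the largest response difference of the 8 genes, and its libraries did not follow 1 pattern. WT cultures T13, T33 and T43 had 3.06, 4.76 and 4.63 TPM without treatment and 4.10, 4.32 and 14.3 TPM with IL-4. KI cultures T15, T22 and T32 had 6.96, 12.5 and 19.3 TPM without treatment and 6.91, 3.81 and 3.16 TPM with IL-4. Untreated KI libraries lay above untreated WT libraries, as 13.6% of all genes did, and the response difference was -1.82 (SE 0.75, unadjusted p = 0.0293, adjusted p = 1.00, limma). *Mmp2* is a typical fibroblast product, so 8 fibroblast markers were read beside it. In WT cultures T13, T33 and T43 they summed to 25.5, 14.8 and 8.71 TPM without treatment and to 20.7, 18.5 and 235 TPM with IL-4. In KI cultures T15, T22 and T32 they summed to 101.9, 55.9 and 29.5 TPM without treatment and to 82.4, 27.0 and 29.7 TPM with IL-4. The IL-4 library of WT T43 was thus the highest in fibroblast markers, with 85.9 TPM of *Col1a1*, and the highest in *Mmp2* among the WT libraries. KI T32 had fibroblast sums of 29.5 and 29.7 TPM beside *Mmp2* levels of 19.3 and 3.16 TPM. *Fbln1* was listed at 0 in all libraries and 4 of the 8 markers passed the expression limit. The part of fibroblasts in the *Mmp2* values was not tested.

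**Figure D4:**
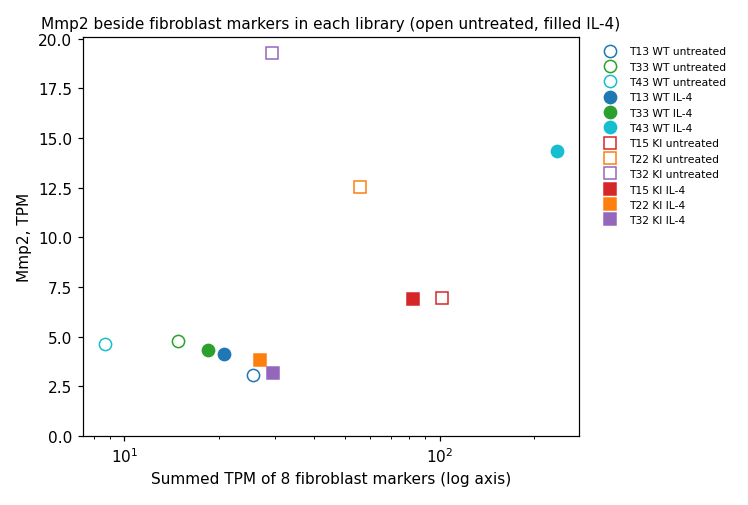
TPM of *Mmp2* on the vertical axis against the summed TPM of 8 fibroblast markers on the horizontal log axis, 1 symbol per library. Circles are WT, squares KI, open symbols untreated and filled symbols IL-4-treated. The treated WT T43 library stands alone at a sum of 235 TPM, and the untreated KI T32 library has the highest *Mmp2* at 19.3 TPM beside a sum of 29.5 TPM.

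The wider families were read through lists of related genes. Of 10 ADAMs with a catalytic site, 7 were tested. *Adam8* was lower and *Adam12*, a sheddase of mesenchymal cells, higher in KI (1.54, adjusted p = 0.0499), and *Adam9* was higher with IL-4. The median log2 difference of the 7 was -0.30 for genotype and 0.28 for IL-4, against 0.13 and 0.04 over all genes. The broadly expressed sheddases *Adam10* and *Adam17* were not among the calls. *Adam10*, the mainly constitutive one, had 69.4 ± 4.14 TPM in WT against 59.6 ± 24.1 TPM in KI libraries without treatment and 95.8 ± 5.68 against 78.4 ± 6.90 TPM with IL-4 (SD, n = 3). Averaged over both treatments its log2 difference was -0.30 (adjusted p = 0.395, limma). *Adam17*, the TNF converting enzyme, which is known to be activated by stimuli, had 67.3 ± 5.40 against 65.7 ± 18.5 TPM without treatment and 87.3 ± 10.5 against 64.5 ± 17.3 TPM with IL-4 (SD, n = 3), and its averaged difference was -0.26 (adjusted p = 0.398, limma). None of the 6 ADAMs that lack the zinc-binding motif reached the expression limit, and 2 of 19 secreted ADAMTS proteases did, with no call.

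Of 23 matrix metalloproteinases 8 were tested and none passed for genotype, IL-4 or the interaction, *Mmp12* and *Mmp13* doing so only in the alternatives given above. Their median log2 difference for genotype was 0.56, with 7 of 8 positive, where 63.1% of all genes tested were positive. With median-ratio scaling 7 of 8 were positive beside 52.0% of all genes (median 0.46), and after quantile normalization 6 of 8 beside 42.5% (median 0.29). *Mmp19* (0.82, adjusted p = 0.129) and *Mmp8*, the collagenase of neutrophils (1.11, adjusted p = 0.182), had positive values that did not pass. In the cluster on chromosome 9 of GRCm38 that runs from *Mmp13* (7272514 to 7283331) and *Mmp12* (7344381 to 7369499) to *Mmp7* (7692090 to 7699585), the levels were uneven. *Mmp1a*, *Mmp1b*, *Mmp7* and *Mmp20* were listed at 0 in all 12 libraries. The other members of the cluster stayed low, with at most 14.5 TPM for *Mmp3*, 9.75 for *Mmp8*, 3.24 for *Mmp27* and 1.35 for *Mmp10*. So among 10 neighbouring genes *Mmp12* stood above all others by its mean, and *Mmp1b*, which overlaps the end of *Mmp12* on the other strand, gave no level. Other genes that overlap *Adam8*, *Adam15*, *Adam19* or *Timp2* were low, with at most 13.9 TPM for *Mir7062*, which lies inside *Adam8* on the same strand, 7.66 TPM for *Gm16201* at *Adam8* and 2.91 TPM for *Cep295nl* at *Timp2*. The counting was not stated to use strand.

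Of 7 inhibitors 6 were tested. *Timp2* rose with IL-4, and *Timp3*, the inhibitor that binds to the matrix and blocks ADAM17, was higher in KI (2.16, SE 0.49, adjusted p = 0.0246, limma). Without treatment *Timp3* had 27.1 ± 20.2 TPM in WT against 166 ± 144 TPM in KI libraries (SD, n = 3), with 329 TPM in KI T15. *Timp1* reached 199.8 TPM in the treated WT T43 library and 12.4 to 88.8 TPM in the others, without a call. Among 9 regulators of ADAM10 and ADAM17, 8 were tested and the tetraspanin *Tspan15*, an ADAM10 partner, was higher in KI (2.12, adjusted p = 0.0175). Among 11 proprotein convertases and plasminogen genes, 8 were tested, with the convertase *Pcsk6* higher in KI (2.25, adjusted p = 0.0212) and the protease inhibitor *Serpine2* lower with IL-4 (-1.31, SE 0.23, adjusted p = 0.00913). *Serpine2* fell from 639 ± 178 to 242 ± 100 TPM in WT and from 521 ± 167 to 231 ± 74.6 TPM in KI libraries (SD, n = 3). Among 9 docking, inducing and clearing partners of the metalloproteinases, 8 were tested and *Lcn2*, which forms a complex with MMP-9, was higher in KI (1.67, adjusted p = 0.00588) and lower with IL-4 (-1.43, adjusted p = 0.0152).

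Among 17 membrane proteins that metalloproteinases shed, 14 were tested. *Trem2* itself and *Csf1r*, the receptor for colony-stimulating factor 1, were lower in KI (-0.83 for *Csf1r*, adjusted p = 0.0124), *App* was higher (0.55, adjusted p = 0.0221) and none was called for IL-4. Of 14 matrix substrates 9 were tested and *Sparc*, a collagen-binding glycoprotein, was higher in KI (2.12, adjusted p = 0.00297), with all 9 differences positive, beside the same 63.1% of all genes, and a median of 0.85, and all 9 were positive with both other scalings. Markers of other cells went in both directions. On the mean log2 scale the astrocyte markers were 1.78 higher in KI, the oligodendrocyte lineage markers 1.20 and the fibroblast markers 0.86 higher, with *Olig1* and *Olig2* among the calls. The 4 border macrophage markers differed by -0.51, the 2 endothelial markers by -0.22 and the 1 mural marker by -1.50. The astrocyte value leaned on KI T15, with scores of 8.05 and 7.61. Other KI libraries had 3.73 to 5.47 and WT libraries 3.26 to 5.45. The 8 oligodendrocyte lineage markers summed to 64.9 to 139.8 TPM in WT and 139 to 545 TPM in KI libraries, and their part and that of fibroblasts were not tested. With each culture left out in turn, the 9 pathway genes called for genotype beside *Adam8* kept their direction, and of them only *Sparc* (adjusted p at most 0.0409) and *Trem2* (at most 0.0348) passed in limma every time. *Adam12*, *Timp3*, *Tspan15*, *Pcsk6* and *App* did not pass without KI T15, without WT T33 or without WT T43. Their log2 differences without T15 were 1.19 (adjusted p = 0.230), 1.49 (0.0772), 1.82 (0.0835), 2.03 (0.0925) and 0.44 (0.0844). Without T33 they were 1.38 (adjusted p = 0.197), 1.91 (0.144), 1.86 (0.0992), 2.17 (0.109) and 0.60 (0.0839), and without T43 1.38 (0.240), 1.97 (0.143), 1.89 (0.0972), 1.73 (0.127) and 0.53 (0.139). *Lcn2* missed the threshold without T33 (1.55, adjusted p = 0.0514) and *Csf1r* without T43 (-0.87, adjusted p = 0.0672). *Adam12* also missed it without KI T22 (adjusted p = 0.0751), and *App* without WT T13 (0.0660) or KI T32 (0.0507). Over all genes the 575 genotype calls were 184 without T15, 91 without T33 and 74 without T43. With the replicate block *Adam12* did not pass (adjusted p = 0.0827, limma) and the other 8 of these genes did. With the astrocyte marker score as a covariate the all-gene count was 119, and of the 9 genes *Trem2* (-0.99, adjusted p = 0.000979), *Lcn2* (2.00, adjusted p = 0.00674) and *Sparc* (1.49, adjusted p = 0.00875) passed in limma. *Adam12* (0.90), *Timp3* (0.95), *Tspan15* (1.30), *Pcsk6* (1.66), *App* (0.40) and *Csf1r* (-0.76) did not, with adjusted p-values from 0.0675 to 0.419. That score was lower in every KI than in every WT library, so a fit with it can hardly tell it from genotype, if the score is the microglial one. With the microglial marker score the all-gene count was 9 and none of these genes passed, with adjusted p-values from 0.136 to 0.788, each keeping its direction, and *Csf1r* is itself 1 of the 18 markers in that score. *Trem2* then differed by -1.27 (adjusted p = 0.331), and it also missed the threshold in IL-4-treated cultures alone (-1.30, adjusted p = 0.141) and with no expression filter (adjusted p = 0.0501).

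The tested genes whose log2 levels followed a member most closely over the 12 libraries were listed for 3 members. For *Adam8* they were *Lpl* (r = 0.97), *Myo1f* (0.97), *Dab2* (0.96), *Cdk18* (0.96) and *Irf5* (0.95). All 5 had negative genotype differences, from -0.52 to -0.96, and *Lpl*, *Dab2* and *Irf5* passed the threshold. For *Mmp12* they were *Lgals3* (0.98), *Anpep* (0.95), *Cd63* (0.94), *Plk2* (0.92) and *Atp6v0c* (0.91), and none passed for genotype or IL-4 without the block, their IL-4 differences ranging from 0.30 to 2.30. For *Timp2* they were *Irf2bp2* (0.98), *Egr2* (0.96), *Sh3glb1* (0.95), *Baiap2* (0.94) and *Itgax* (0.94), all of which rose with IL-4, by 0.61 to 3.63. These libraries share cultures, so the correlations describe this set of libraries and no more.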

How the data were processed

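Poly(A)-primed SMART-Seq v4 libraries of 12 primary microglial samples were sequenced as paired ends. Reads were trimmed (Trim Galore), assigned to ENSEMBL GRCm38 transcripts (Salmon, with its GC and positional bias correction) and summed per gene (tximport) by the authors. The versions are not given in the sources used here. The authors deposited TPM, in which a gene's value depends on all other genes of the library, and read depth is unknown. Per the methods the study tested counts with a likelihood-ratio test. Counts were not analysed here, so limma 3.58.1 (R 4.3.3, lmFit and eBayes with a variance trend) was applied to log2(TPM + 1), which understates fold changes of low genes, for the 11204 genes with a mean above 1.5. All 12 libraries entered with 1 coefficient per group, and single contrasts were tested with Benjamini-Hochberg adjustment at 0.05 because that p belongs to the log2 difference printed. The genes and lists were chosen with earlier results of these data known. All 10 genes are named, up to 4 called genes of each list, and the 5 closest genes of *Adam8*, *Mmp12* and *Timp2*.

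The 2 libraries of a culture share its number in the sample titles and so are paired. Deviations from group means correlated at 0.0792 to 0.378 within the 6 cultures. Culture was a random replicate block for genotype (within-culture correlation 0.198) and a fixed one for IL-4 and the interaction. Without it, genotype has fewer independent replicates than libraries. Cultures of a group were counted as separate, and the sources do not say which of them shared a litter or a preparation. The p-values of the main fit measure the spread between libraries of a group. Those of the fixed block measure the spread of the IL-4 steps between cultures. Coordinates are from the GENCODE annotation of GRCm38. The fit was tested on simulated data. Alternatives were a pseudocount of 0.1, no filter or a filter at 3, quantile and median-ratio scaling, no variance trend, the block, an F-test with the interaction, marker scores as covariates, each genotype or treatment alone, and each culture left out.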

Additional observations from a re-analysis of the deposited data

How the results depend on the processing

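The number of members past the genotype threshold was 1. It was 2 with median-ratio scaling, and 0 with no expression filter, no variance trend, the microglial or astrocyte marker score as a covariate, the F-test with the interaction, untreated cultures alone or IL-4-treated cultures alone, and 0 to 2 with 1 culture left out. Beside these, the all-gene calls were 510 with median-ratio scaling and 61 of 29745 with no filter. They were 300 with no variance trend, 9 and 119 with the microglial and astrocyte scores, and 185 with the F-test. Untreated cultures alone gave 102 and IL-4-treated cultures alone 2. The member counts of 0 thus stand beside fewer calls over all genes. With quantile normalization the 1 call was *Adam15* and not *Adam8*. The IL-4 count was 2. It was 4 with the replicate block, which added *Mmp12* and *Mmp13*, 4 with the astrocyte score, 3 with the microglial score (*Mmp13* added), 1 with no variance trend, 1 in WT cultures alone, 0 in KI cultures alone and 1 to 3 with 1 culture left out. The all-gene IL-4 calls were 327 with the block, 263 with the astrocyte score and 131 with the microglial score. They were 81 with no variance trend, 64 in WT cultures alone and 45 in KI cultures alone. The interaction count was 0 in all 15 alternatives. The replicate block changed no other call on a member. *Adam8* relative to microglial markers ranged from -0.52 to -0.02 with 1 culture left out. Counts over all genes moved by more than 1.5 times. For genotype they ranged from 2 (IL-4-treated cultures alone) to 846 (without T22) beside 575, and for IL-4 from 45 (KI cultures alone) to 327 (replicate block) beside 151. The causes were not tested, and a fit without a culture also holds fewer libraries.

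Each difference that changed sign had not passed the threshold in its own comparison, and the cause was not tested. For genotype, *Adam9* was -0.11 after quantile normalization, -0.092 with median-ratio scaling, -0.11 with the astrocyte score, -0.060 in IL-4-treated cultures alone and from -0.039 to 0.11 with 1 culture left out. *Mmp2* was -0.46 and *Timp2* -0.068 in IL-4-treated cultures alone. *Mmp12* was -1.15 with the microglial score and from -0.59 to 0.85 with 1 culture left out, *Mmp13* was 0.50 in untreated cultures alone and from -0.43 to 0.38, and *Mmp14* was -0.013 after quantile normalization, -0.30 with the microglial score and from -0.076 to 0.36. For IL-4, *Mmp2* was 0.55 in WT cultures alone. For the interaction, *Mmp12* was 0.11 after quantile normalization, 0.52 with the microglial score and 0.11 with the astrocyte score. With 1 culture left out it ranged from -0.39 to 0.15, *Adam8* from -0.047 to 0.38 and *Adam9* from -0.34 to 0.13.

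Without read counts the counting error of *Mmp9*, *Adam19* and *Mmp2* is unknown, and the genotype intervals of *Mmp12* and *Mmp13* are wide.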
